A study of Homo sapiens with 4 samples.

Results

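Long intergenic RNAs whose symbol is LINC followed by a number were examined in sorted cells of a human cardiac differentiation. A gene was a member when its Ensembl identifier mapped to such a symbol and its level reached 1 CPM (read counts relative to library size, scaled by TMM, the trimmed mean of M-values) in at least 1 of the 4 libraries. Of 60234 genes in the count table, 2101 carried a LINC symbol, and 291 of these, under 290 symbols, were members. Another 1011 had reads but stayed under 1 CPM, and 799 had none in any library. The members were therefore chosen on their measured levels. The highest CPM of 30 members lay between 1 and 1.1, just inside the limit, and that of 13 LINC genes lay between 0.9 and 1, just outside it.

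The cells were NKX2.5:GFP hESCs, a human embryonic stem cell line in which 1 copy of the NKX2-5 gene carries eGFP, so that fluorescence marks cells that express this cardiac transcription factor. All 4 libraries came from this line after spin embryoid body differentiation towards heart. The RA culture received 1 µM retinoic acid (RA) from day 4 to day 7, the control (CTR) culture received the solvent DMSO over the same days, and both were sorted by GFP at day 31. Each of the 4 populations (CTR GFP-positive, CTR GFP-negative, RA-treated GFP-positive, RA-treated GFP-negative) gave 1 library, so no difference between conditions has a replicate check and none was tested.

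Long intergenic RNAs are transcripts without a long open reading frame that lie between protein-coding genes. Most are expressed at low levels and in few cell types, many lie beside genes of developmental regulators, and a few give rise to small peptides. In heart, endoderm and brain, single members are known as markers of the lineage. Retinoic acid acts through nuclear receptors that bind DNA at repeats of a short motif, and in cardiac differentiation it favours atrial over ventricular cells.

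Total counts were 28643091 in CTR GFP-positive cells, 4371101 in CTR GFP-negative cells, 28125727 in RA-treated GFP-positive cells and 26222787 in RA-treated GFP-negative cells. A single read was worth 0.213 CPM in the shallow CTR GFP-negative library and 0.0349 to 0.039 CPM in the others, so that the limit of 3 reads that a count of 0 allows stood at 0.639 CPM there and at 0.105 to 0.117 CPM elsewhere. The CPM of NKX2-5 itself in the GFP-positive fraction was 40.9 times that in the GFP-negative fraction of the CTR culture (95% interval 32.3 to 52.8) and 47.5 times that of the RA culture (41.9 to 54.0), in the direction of the sort labels. Intervals and limits given here cover counting error only. In sorted bulk RNA, fewer cells of a type and less RNA per cell cannot be told apart, and the RA and CTR cells grew in separate cultures, so that culture and treatment cannot be told apart either.

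The promoter windows of 3 members around which the results turn are printed first: LINC00881, the member with the largest difference between fractions, LINC02381, which stood highest above control in RA-treated GFP-positive cells, and LINC00261, which stood highest above control in RA-treated GFP-negative cells, all on the scale of log2(CPM + 1). The windows run from 250 bases before to 50 bases after the RefSeq start, 5′ to 3′ on the strand of the gene, and each matched GRCh37 at 1 place: chr3:156807420-156807719 (plus strand), chr12:54519605-54519904 (plus strand) and chr20:22559231-22559530 (minus strand). Capitals mark the motifs found, on either strand.
LINC00881: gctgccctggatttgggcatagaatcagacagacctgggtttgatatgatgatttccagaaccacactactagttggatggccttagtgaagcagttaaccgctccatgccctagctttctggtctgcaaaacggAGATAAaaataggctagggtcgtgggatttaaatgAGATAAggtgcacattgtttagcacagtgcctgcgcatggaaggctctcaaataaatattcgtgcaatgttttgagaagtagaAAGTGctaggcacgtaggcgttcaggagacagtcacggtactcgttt
LINC02381: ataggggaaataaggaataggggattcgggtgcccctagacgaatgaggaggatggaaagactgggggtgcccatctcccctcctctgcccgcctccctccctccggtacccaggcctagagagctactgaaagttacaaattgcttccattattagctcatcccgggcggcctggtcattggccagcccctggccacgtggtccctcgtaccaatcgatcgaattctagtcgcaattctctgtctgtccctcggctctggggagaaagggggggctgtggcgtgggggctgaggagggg
LINC00261: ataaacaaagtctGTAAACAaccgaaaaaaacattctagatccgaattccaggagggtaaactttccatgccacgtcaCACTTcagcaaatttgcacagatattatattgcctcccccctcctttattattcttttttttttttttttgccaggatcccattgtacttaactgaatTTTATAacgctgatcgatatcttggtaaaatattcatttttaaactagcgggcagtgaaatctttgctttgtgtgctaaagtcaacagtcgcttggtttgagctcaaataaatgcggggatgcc

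The motifs searched on both strands were AGATAA (the core bound by GATA factors), TGTTTAC (forkhead factors), AAGTG (part of the NKX2-5 site), TATAAA (the TATA box), AGGTCA and AGTTCA (sites of nuclear receptors) and AGGTCA repeated with 5 bases between. The LINC00881 window held AGATAA at 2 places, 115 and 80 bases before the start, and AAGTG at base 4 after it. On the opposite strand the LINC00261 window held the forkhead motif, the NKX2-5 motif and the TATA box, and in the LINC02381 window none of these letters occurred. Windows were available for 184 of the 290 member symbols, 209 windows in all. Among them 15.3% held AGATAA against 10.3% of all 35116 windows in the reference, 6.22% against 3.42% held TGTTTAC, 36.8% against 43.1% AAGTG, 12.4% against 11.5% TATAAA, 18.2% against 13.8% AGGTCA, and 13.4% against 10.4% AGTTCA. The AGGTCA repeat was in none of the member windows and in 0.0057% of all windows. A match of letters is a description and no evidence of a bound factor.

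As a class the members were low. The median of their highest CPM was 2.37, close to the 2.38 of the 1957 other lncRNA genes at 1 CPM or more and far below the 32.2 of 15251 protein-coding genes chosen by the same limit. Only 38 members reached 10 CPM in a library, 78 reached 5 CPM, and 122 stayed under 2 CPM in every library. The limit of 1 CPM was met in all 4 libraries by 79 members, in 3 by 49, in 2 by 47 and in a single library by 116. That single library was CTR GFP-negative for 50 members, CTR GFP-positive for 28, RA-treated GFP-negative for 21 and RA-treated GFP-positive for 17. The 50 members that met it only in CTR GFP-negative cells rested on 5 to 29 reads there (median 7), whereas those of the other 3 libraries had at least 26 reads.

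The shallow library held the fewest LINC genes as deposited. Over all 2101 LINC genes, a set that owes nothing to the limit of 1 CPM, 507 had at least 4 reads in CTR GFP-positive cells, 222 in CTR GFP-negative, 513 in RA-treated GFP-positive and 594 in RA-treated GFP-negative cells. After all libraries were thinned to the same 4371101 reads, the numbers were 211, 222, 194 and 185. In this single random draw the order of the libraries turned around, with CTR GFP-negative cells first and RA-treated GFP-negative cells last. The CTR GFP-negative library itself was left as deposited, and the spread between draws was not measured, so that the order of such close numbers is uncertain.

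**Figure D1:**
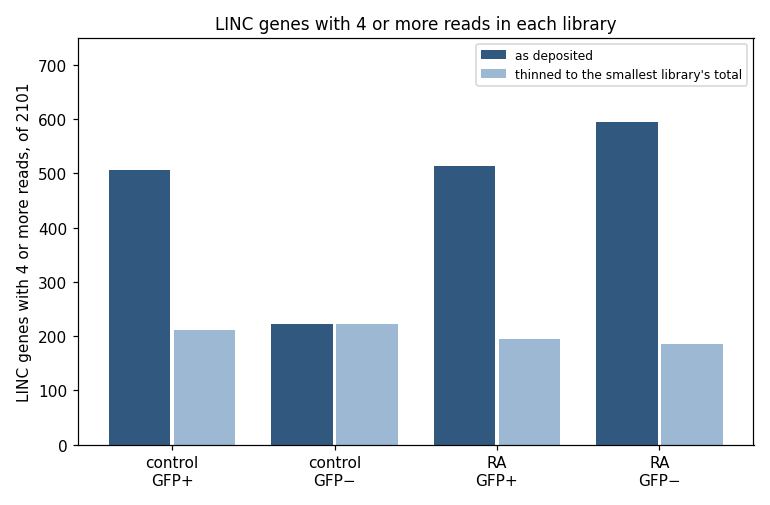
Number of LINC genes, of 2101, with 4 or more reads in each of the 4 libraries (vertical axis), as deposited (dark bars) and after thinning to the smallest total (light bars). As deposited the CTR GFP-negative library had 222 and the others 507 to 594, and at the same total count, in a single random draw, the 4 libraries had 185 to 222.

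The most abundant members by CPM, which is not corrected for gene length, were broadly expressed. LINC02593, beside SAMD11 on chromosome 1, had 68.1 CPM in CTR GFP-positive, 36.8 in CTR GFP-negative, 93.2 in RA-treated GFP-positive and 33.1 in RA-treated GFP-negative cells. LINC00963 had 80.8, 25.1, 70.3 and 25.8 CPM in the same order, and LINC00667 had 62.2, 32.4, 54.5 and 27.7. LINC00667 overlaps the gene body of ZBTB14 and shares 21.9% of its exon bases with other genes, so that without strand its level is uncertain. All 3 were above 25 CPM in every library and higher in both GFP-positive libraries than in either GFP-negative one. LINC00641 was the most even of the 10 most abundant in the CTR culture, with 46.6 CPM in GFP-positive and 44.5 CPM in GFP-negative cells, and 41.1 and 30.2 CPM after RA. LINC01089, which starts 103 bases from the start of SETD1B and shares 41.7% of its exon bases with other genes, had 45.0, 35.4, 43.7 and 24.6 CPM, and as reads were counted without strand its level is uncertain. LINC01128, LINC01278, LINC02210 and LINC00938 completed the 10 with LINC00881, the only one of them that was at 0 reads in a library.

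Per kilobase of exon, LINC00881 stood at 13.3 CPM per kb in CTR GFP-positive cells against 16.4 for LINC02593, 10.9 for LINC01089, 5.74 for LINC00963 and 3.19 for LINC01128. LINC01770 reached 45.5 and LINC00888 67.1 CPM per kb on exon models of 851 and 421 bases. These lengths are from the GENCODE v44 models and not from the annotation the authors counted with, so that short models such as the 160 bases of LINC00674 (51.0 CPM per kb) can overstate a level. LINC00888 and LINC00674 are annotated there as transcribed pseudogenes, copies of other genes, and reads that fit several places were left out by the authors.

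Across the sort of the CTR culture, 83 of 291 members were higher in GFP-positive cells by at least 1 in log2(CPM + 1), where 13.4% of all 19789 genes at 1 CPM or more were, and 57 were lower, where 16.1% of all genes were. After RA, 43 members were higher in GFP-positive cells (9.33% of all genes) and 20 were lower (12.9% of all genes). With a pseudocount of 0.25 CPM the counts in the CTR culture were 113 and 77, with one of 5 CPM 16 and 10, and for a 2-fold ratio of CPM 90 and 97, so that the larger count changed sides. Those after RA were 83 and 54 with a pseudocount of 0.25 CPM, 12 and 6 with one of 5 CPM, and 98 and 65 for a 2-fold ratio of CPM. Here and below, shares over all genes were computed with the pseudocount of 1 CPM alone. Counts at other settings therefore say nothing about LINC genes in particular. The shares among members were 28.5% and 19.6% in the CTR culture and 14.8% and 6.87% after RA. Those of the other lncRNA genes were 25.3% and 13.4%, and 16.2% and 4.6%, and those of protein-coding genes 11.5% and 16.7%, and 8.64% and 15.1%. The median member difference was 0.32 in the CTR culture and 0.14 after RA, against 0.03 and 0.01 over all genes. The choice of members bears on these shares, since a gene that met the limit only through 1 library had to differ from the others: of the 57 lower in CTR GFP-positive cells, 33 met it only in the shallow CTR GFP-negative library, and without that library in the rule 24 of 241 members were lower, where 13.8% of all genes chosen in the same way were, with a median over the members of 0.54. Of the 83 higher, 37 had no read in that library.

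LINC00881, a heart-enriched lncRNA at chromosome 3, 156807423 to 156853346 of GRCh37 (plus strand, 5 exon blocks), was the member that followed the sort most closely. It had 1801 reads (62.9 CPM, 60.0 to 65.8) in CTR GFP-positive cells, 0 reads in CTR GFP-negative cells, 1304 reads (48.8 CPM, 46.1 to 51.5) in RA-treated GFP-positive cells and 20 reads (0.779 CPM, 0.476 to 1.20) in RA-treated GFP-negative cells. The fractions were far apart in both cultures: LINC00881 was at least 98.4-fold higher in GFP-positive cells of the CTR culture, taken against the limit of 3 reads, and 62.6-fold higher (40.3 to 103) after RA. Between the GFP-positive libraries it was 1.29-fold lower with RA (1.20 to 1.39). The nearest protein-coding gene, the cyclin gene CCNL1, was broadly expressed, at 176 to 238 CPM in the 4 libraries. Over 9 cardiomyocyte markers the summed level was 19139 CPM and 933 CPM in the CTR fractions, GFP-positive first, and 17060 and 498 CPM after RA.

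In all, 25 members were higher in GFP-positive cells of both cultures, where 5.8% of all genes were. This count was 50 with a pseudocount of 0.25 CPM, 6 with one of 5 CPM and 46 for a 2-fold ratio, and the shares that follow hold for the pseudocount of 1 CPM. They made up 30.1% of the members higher in the CTR culture and 58.1% of those higher after RA, where the same shares over all genes were 43.4% and 62.2%. Their differences ran from 1.02 to 5.997 in the CTR culture (median 1.56) and from 1.00 to 4.81 after RA (median 1.38), and 5 of them had no read in CTR GFP-negative cells. The libraries of these 2 comparisons are different ones, while the cells of each culture were divided by the same gate.

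LINC01770 lies 288 bases from the start of VWA1, which encodes an extracellular matrix protein. It had 38.7 CPM in CTR GFP-positive, 4.47 in CTR GFP-negative, 21.6 in RA-treated GFP-positive and 3.27 in RA-treated GFP-negative cells, 8.66-fold (5.64 to 14.05) and 6.61-fold (5.25 to 8.42) higher in the GFP-positive fraction. VWA1 itself had 96.7, 67.5, 83.0 and 109 CPM in the same order, so that its order after RA was the opposite of that of LINC01770. LINC01936 had 176, 0, 109 and 4 reads and was 26.1-fold higher (9.92 to 97.7) in GFP-positive cells after RA and at least 9.61-fold higher in those of the CTR culture. Its neighbour LCLAT1, a lysocardiolipin acyltransferase gene, had 24.6, 6.60, 20.3 and 8.34 CPM, also higher in both GFP-positive libraries.

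LINC01844, 18159 bases from the growth factor gene FGF1, had 6.14, 1.49, 9.01 and 0.935 CPM in CTR GFP-positive, CTR GFP-negative, RA-treated GFP-positive and RA-treated GFP-negative cells. FGF1 went the other way across the sort, with 2.20, 4.47, 5.38 and 10.2 CPM. LINC00648 had 19.996, 8.94, 18.7 and 3.90 CPM. It lay 119697 bases from MDGA2, a neuronal cell adhesion gene that stayed at or below 2.81 CPM. More widely expressed members were in this group too. LINC00963 was 3.21-fold higher (2.67 to 3.90) and LINC01128 2.61-fold higher (2.14 to 3.21) in GFP-positive cells of the CTR culture, and LINC01278 and LINC01003 differed by 1.328 and 1.05 in log2(CPM + 1) there.

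**Figure D2:**
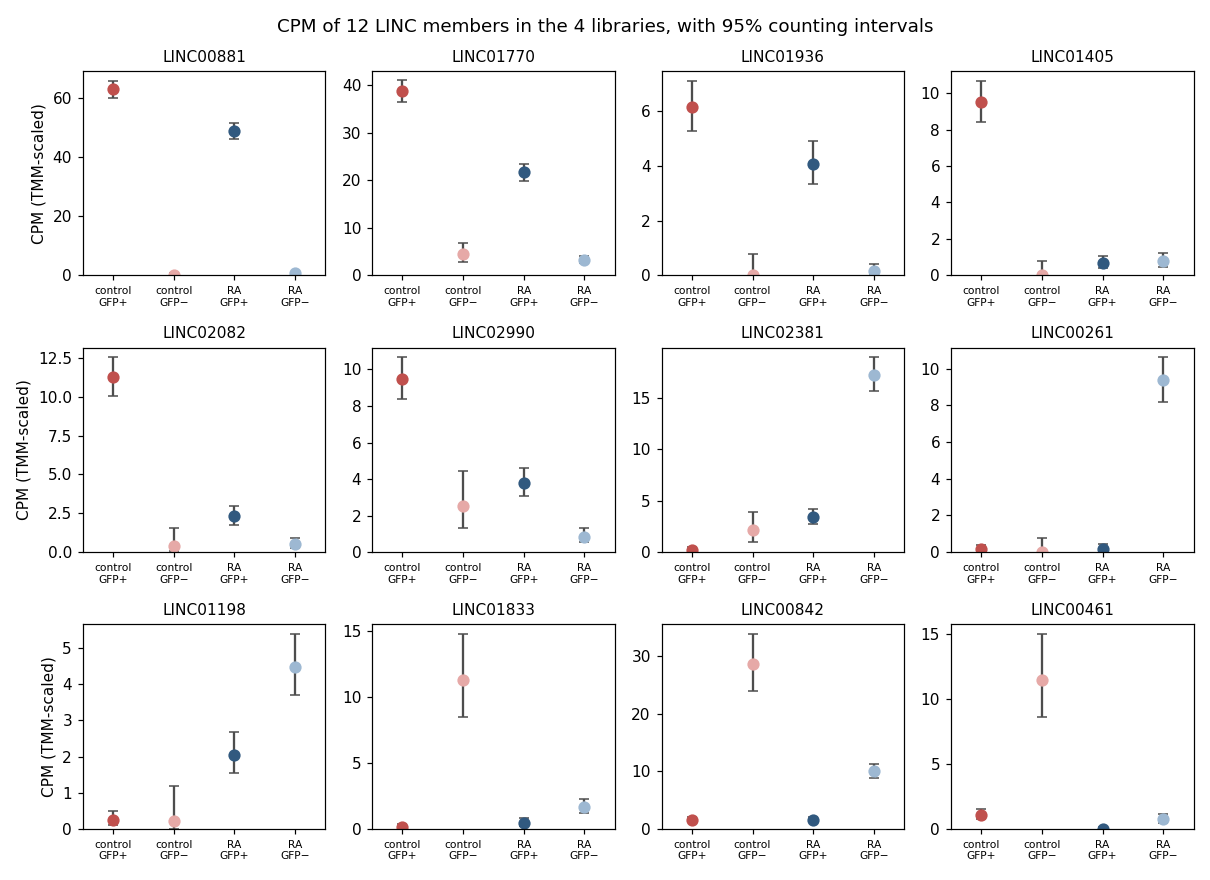
CPM (vertical axes, each from 0) of 12 members in the 4 libraries, with 95% Poisson intervals as bars. LINC00881, LINC01770 and LINC01936 are high in both GFP-positive libraries, LINC01405, LINC02082 and LINC02990 are highest in CTR GFP-positive cells, LINC02381, LINC00261 and LINC01198 in RA-treated GFP-negative cells, and LINC01833, LINC00842 and LINC00461 in CTR GFP-negative cells.

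A list of 10 members was lower in GFP-positive cells of both cultures, where 8.07% of all genes were, and the list had 31 members with a pseudocount of 0.25 CPM, 2 with one of 5 CPM and 48 for a 2-fold ratio. At the pseudocount of 1 CPM it held 17.5% of the members lower in the CTR culture and 10 of the 20 lower after RA, where the shares over all genes were 50.02% and 62.7%. That none was at 0 reads in CTR GFP-negative cells follows from the definition of this list. LINC00968 had 0.838 CPM in CTR GFP-positive, 10.9 in CTR GFP-negative, 0.860 in RA-treated GFP-positive and 11.7 in RA-treated GFP-negative cells. Its fraction difference was thus almost the same in both cultures, 13.0-fold (7.84 to 22.0) and 13.6-fold (8.89 to 21.8) lower in GFP-positive cells. LINC03013 had 1.05, 16.4, 0.561 and 5.73 CPM, high in both GFP-negative libraries and highest in that of the CTR culture. LINC00842 had 1.61, 28.5, 1.61 and 9.98 CPM and starts 75 bases from ANXA8L1, an annexin gene with 1.22, 21.5, 0.374 and 7.29 CPM. The region holds near-identical copies of these genes, reads that fit several places were left out by the authors and strand was not used, so that neither value can be assigned to 1 gene with certainty. LINC01638 had 3, 36, 17 and 61 reads, and the other members of the list were LINC00607, LINC00632, LINC01224, LINC01239, LINC02154 and LINC02381. Over 7 markers of fibroblasts and smooth muscle the summed level was 3575 and 26267 CPM in the CTR fractions, GFP-positive first, and 13598 and 50107 CPM after RA, with COL1A1 and COL3A1 alone at 22020.5 and 24128 CPM of the last value. ACTA2 had 498 and 511 CPM in the RA fractions, GFP-positive first. Over 5 endothelial markers the sums were 16.9 and 280 CPM, and 16.3 and 262 CPM. The part of these cells in the levels of the 10 members was not tested.

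**Figure D3:**
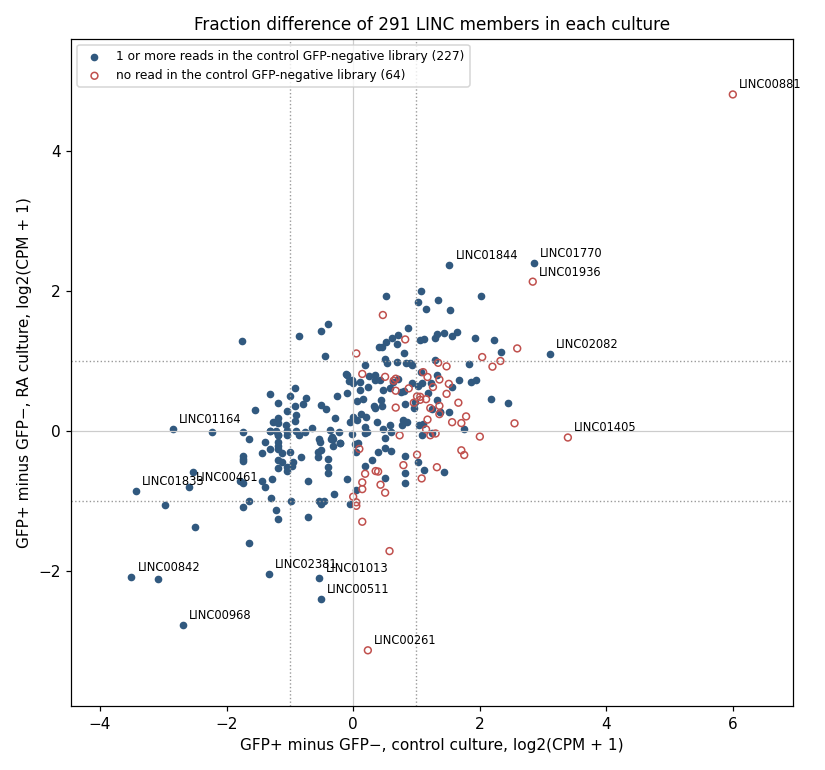
Difference between GFP-positive and GFP-negative cells in log2(CPM + 1) for each of 291 members, in the CTR culture (horizontal axis) and after RA (vertical axis), with dotted lines at 1 and -1. LINC00881 stands alone at 5.997 and 4.81, LINC00842 and LINC00968 are at the lower left, and the open circles are the 64 members with no read in the CTR GFP-negative library.

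Between the GFP-positive libraries, 8 of 291 members were higher with RA by at least 1 in log2(CPM + 1), where 4.49% of all genes were, and 13 were lower, where 1.87% of all genes were. These counts depend on the weight of low levels, and were 30 and 37 with a pseudocount of 0.25 CPM, 0 and 2 with one of 5 CPM, 44 and 50 for a 2-fold ratio of CPM, and 11 and 33 after thinning. The shares among members were 2.75% and 4.47%, beside 2.2% and 3.47% of the other lncRNA genes. Over the members the median difference was -0.12, against 0.01 over all genes, and 170 were below 0 and 106 above.

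LINC01405, a lncRNA of heart and skeletal muscle, had the largest difference of these. It lies at chromosome 12, 111372394 to 111396897 (plus strand), 13147 bases from the start of MYL2, which encodes the ventricular regulatory light chain of myosin. Reads numbered 272 in CTR GFP-positive cells, 0 in CTR GFP-negative cells, 18 in RA-treated GFP-positive cells and 20 in RA-treated GFP-negative cells. The CTR GFP-positive library stood apart from the other 3, and LINC01405 was 14.1-fold lower (8.76 to 24.2) in GFP-positive cells with RA. LINC01405 met the limit of 1 CPM in CTR GFP-positive cells alone, so that a higher level there follows from how members were chosen. As 20.5% of its exon bases are shared with other genes and strand was not used, these reads are uncertain. MYL2 had 20.2, 0, 4.00 and 0 CPM in the same order, a difference of -2.09 between the GFP-positive libraries against -2.65 for LINC01405. In RA-treated cells the pair parted across the sort: LINC01405 had 0.673 and 0.779 CPM in the GFP-positive and GFP-negative fractions, within each other's intervals, whereas MYL2 was at 0 in the latter.

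LINC02082 had 322, 2, 62 and 14 reads in CTR GFP-positive, CTR GFP-negative, RA-treated GFP-positive and RA-treated GFP-negative cells. With RA it was 4.85-fold lower (3.68 to 6.47) in GFP-positive cells, and it kept a 4.25-fold higher level (2.35 to 8.22) in these than in RA-treated GFP-negative cells. MECOM, the nearest coding gene at 761581 bases, had 11.7, 22.6, 27.0 and 30.7 CPM and was lowest where LINC02082 was highest. LINC02990 had 9.49, 2.56, 3.78 and 0.857 CPM and was 2.51-fold lower with RA in GFP-positive cells (1.99 to 3.19) and 2.98-fold lower in GFP-negative cells (1.34 to 6.29). LINC01611 had 68 reads in CTR GFP-positive cells, 0 in CTR GFP-negative cells, 1 in RA-treated GFP-positive cells and 8 in RA-treated GFP-negative cells. Its nearest coding gene TBX18, a transcription factor of the epicardium and sinus node, had 28.0, 269, 10.5 and 129 CPM, and so was highest where LINC01611 had no read, while between the GFP-positive libraries both were lower with RA (differences of -1.33 and -1.70). LINC01363 had 92, 2, 18 and 2 reads and LINC01099 had 76, 5, 13 and 32. Both were lower in GFP-positive cells with RA, 4.77-fold (2.86 to 8.40) and 5.46-fold (3.01 to 10.7). LINC01611 and LINC01363 met the limit of 1 CPM only in CTR GFP-positive cells. Their lower level with RA in that fraction follows from how members were chosen.

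Higher with RA in GFP-positive cells was LINC02381, from 7 to 92 reads, which is described with the GFP-negative cells below. LINC02898 went from 3 to 59 reads between the GFP-positive libraries, a ratio of 21.1 (6.87 to 105), and LINC02208 from 11 to 61, a ratio of 5.94 (3.10 to 12.5). In GFP-negative cells LINC02898 had 0 reads in the CTR and 21 in the RA library, and LINC02208 had 0 and 1. In both cultures LINC02208 thus had more reads in the GFP-positive fraction, although the 0 of the CTR GFP-negative library allows 0.639 CPM against 0.384 CPM in CTR GFP-positive cells. LINC02898 and LINC02208 met the limit of 1 CPM only in RA-treated GFP-positive cells. Their higher level there follows from how members were chosen.

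In GFP-negative cells, 38 members were higher with RA, where 8.19% of all genes were, and 58 were lower, where 7.17% of all genes were. With a pseudocount of 0.25 CPM these counts were 72 and 81, with one of 5 CPM 3 and 7, and for a 2-fold ratio of CPM 34 and 110. Among members these are 13.1% and 19.9%, beside 6.49% and 16.7% of the other lncRNA genes. The shallow CTR GFP-negative library bears on both counts. Of the 58 lower, 36 met the limit of 1 CPM in that library alone, and without it in the rule 22 of 241 members were lower and 38 higher, where 4.55% and 8.67% of all genes chosen in the same way were, with a median of 0.11 in place of -0.04. Of the 38 higher, 24 had no read in it.

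LINC02381 lies in the region of the HOXC genes at chromosome 12, 54519803 to 54541269 (plus strand, 7 exon blocks). It had 7 reads (0.244 CPM, 0.0982 to 0.503) in CTR GFP-positive cells, 10 (2.13 CPM, 1.02 to 3.92) in CTR GFP-negative cells, 92 (3.44 CPM, 2.77 to 4.22) in RA-treated GFP-positive cells and 443 (17.3 CPM, 15.7 to 18.9) in RA-treated GFP-negative cells. Both RA libraries were above the CTR library of their fraction with no overlap of intervals, 14.1-fold (6.57 to 36.0) in GFP-positive and 8.11-fold (4.37 to 17.0) in GFP-negative cells, and in each culture the GFP-negative cells had more. The HOXC genes of the region, homeobox genes of position along the body axis, had few reads: HOXC4 had 0, 0, 0 and 3 in that order, HOXC6 0, 0, 0 and 10, HOXC8 0, 2, 0 and 4, HOXC9 0, 0, 3 and 5, and HOXC10 0, 0, 5 and 1, with none for HOXC5. These neighbours were chosen after their values were seen. LINC02381 overlaps the gene body of SMUG1, a DNA repair gene with 17.9, 14.3, 18.96 and 23.3 CPM, and shares 24.0% of its exon bases with other genes.

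With LINC02381, 3 members were higher with RA in both fractions, where 1.43% of all genes were, and 2 were lower. These counts were 11 and 12 with a pseudocount of 0.25 CPM, 0 and 0 with one of 5 CPM, and 7 and 28 for a 2-fold ratio. LINC01198 had 7, 1, 55 and 115 reads in CTR GFP-positive, CTR GFP-negative, RA-treated GFP-positive and RA-treated GFP-negative cells, with ratios of 8.42 (3.82 to 21.9) and 21.0 (3.70 to 838) for RA in GFP-positive and GFP-negative cells. LINC03051 had 2, 0, 36 and 46 reads. In the other direction, LINC00461 and LINC00327 were lower with RA in both fractions, where 0.263% of all genes were. LINC00327 had 2.72, 6.39, 0.860 and 2.69 CPM, with differences at the limit of 1 in both fractions. LINC03051 and LINC00327 were named after their values were seen.

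LINC00261 is known as a lncRNA of definitive endoderm beside FOXA2, a pioneer transcription factor of endoderm. It lies at chromosome 20, 22528301 to 22559280 (minus strand), 6813 bases from the start of FOXA2. Reads numbered 5 in CTR GFP-positive, 0 in CTR GFP-negative, 5 in RA-treated GFP-positive and 240 in RA-treated GFP-negative cells. RA-treated GFP-negative cells stood apart from the other 3 libraries, at 9.35 CPM (8.21 to 10.6), at least 14.6-fold above the CTR GFP-negative cells and 50.03-fold (21.1 to 155) above the RA-treated GFP-positive cells. LINC00261 met the limit of 1 CPM in RA-treated GFP-negative cells alone, so that a higher level there follows from how members were chosen. FOXA2 had 0, 0, 13 and 240 reads, the same number as LINC00261 in RA-treated GFP-negative cells. Over 8 matched endoderm markers, FOXA2 among them, the summed level was 11.5, 94.1, 40.9 and 699 CPM in CTR GFP-positive, CTR GFP-negative, RA-treated GFP-positive and RA-treated GFP-negative cells. AFP alone gave 465 of the 699 CPM. TTR and SOX17 ran the other way, with 73.0 and 10.2 CPM in CTR GFP-negative against 11.7 and 7.13 CPM in RA-treated GFP-negative cells.

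Further members were higher with RA in GFP-negative cells. LINC01013, whose gene body overlaps that of CCN2, a matrix-associated growth factor gene, had 8, 4, 31 and 211 reads, and CCN2 had 143, 1245, 457 and 2324 CPM. Both were highest in RA-treated GFP-negative cells, and with reads counted without strand LINC01013 is uncertain. LINC01091, 142231 bases from the signalling inhibitor gene SPRY1, had 14, 0, 20 and 121 reads, at least 7.38-fold higher with RA in GFP-negative cells, while SPRY1 had 109 and 114 CPM in the GFP-negative fractions. LINC00511, a lncRNA often described in tumours, had 13, 5, 9 and 155 reads, 5.67-fold higher (2.38 to 17.7) with RA in GFP-negative cells. LINC01108, described in pluripotent stem cells, had 1, 0, 10 and 48 reads, and 5 pluripotency markers summed to 0.907, 14.7, 4.52 and 55.7 CPM. Like LINC00261, LINC01091 and LINC01108 met the limit of 1 CPM in RA-treated GFP-negative cells alone. Their higher level there follows from how members were chosen. LINC00847 was highest in CTR GFP-positive cells, with 139, 0, 80 and 69 reads, so that CTR GFP-negative cells alone lacked it, at a level at least 4.21-fold below RA-treated GFP-negative cells.

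A further set was highest in CTR GFP-negative cells, on counts of 7 to 54 reads. LINC01833, 2503 bases from the start of SIX3, a homeobox gene of forebrain and eye, had 4, 53, 13 and 43 reads in CTR GFP-positive, CTR GFP-negative, RA-treated GFP-positive and RA-treated GFP-negative cells, or 0.140, 11.3, 0.486 and 1.68 CPM. It was 6.74-fold lower (4.42 to 10.3) in GFP-negative cells with RA. SIX3 had 0.279, 18.95, 0.0374 and 1.64 CPM and so had its highest level in the same library. LINC00461, the neural host transcript of a copy of miR-9, had 31, 54, 0 and 19 reads. With RA it was 15.5-fold lower (9.06 to 27.7) in GFP-negative cells and at least 9.64-fold lower in GFP-positive cells. Its nearest coding gene MEF2C, 213200 bases away and a transcription factor of muscle and neurons, had 56.3, 16.6, 83.0 and 23.9 CPM, higher in the GFP-positive fractions where LINC00461 was lower.

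LINC01551 had 0, 7, 15 and 2 reads in the same order, more in CTR GFP-negative than in CTR GFP-positive cells and, after RA, more in the GFP-positive than in the GFP-negative fraction. As 5.4% of its exon bases are shared with other genes and strand was not used, its reads are uncertain. LINC01164 had 0, 29, 7 and 6 reads and LINC02015 had 6, 22, 7 and 7, both highest in CTR GFP-negative cells, 26.4-fold (10.8 to 77.8) and 17.2-fold (7.09 to 47.6) above RA-treated GFP-negative cells. LINC01551, LINC01164 and LINC02015 met the limit of 1 CPM only in CTR GFP-negative cells. That they were highest there, and lower with RA in that fraction, thus follows from how members were chosen. LINC00472 had 61, 45, 92 and 21 reads, or 2.13, 9.58, 3.44 and 0.818 CPM. Over 9 markers of neural and eye cells the summed level was 110, 768, 131 and 168 CPM, of which PMEL, a pigment cell gene, alone gave 444 of the 768. The markers did not all follow this order: STMN2 had 1.26, 16.8, 42.5 and 72.7 CPM and MITF 67.5, 24.7, 54.0 and 11.7 CPM, while the other 7 were highest in CTR GFP-negative cells. The part of such cells in these members was not tested.

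The RA difference in GFP-positive cells exceeded that in GFP-negative cells by at least 1 for 49 members, where 9.52% of all genes were, and fell short of it for 51, where 8.92% of all genes were. The order of these counts depended on the scale, with 76 and 87 for a pseudocount of 0.25 CPM, 7 and 3 for one of 5 CPM, and 97 and 52 for a 2-fold ratio. Without CTR GFP-negative cells in the rule the first count was 17 of 241, where 7.07% of all 18677 genes chosen in the same way were, and the second 51, where 9.45% were. The smallest differences of differences were those of LINC01405 and LINC00261, the one lower with RA in GFP-positive cells and the other higher in GFP-negative cells. A single member, LINC01085, passed 1 in opposite directions, as 0.303% of all genes did, with 4, 5, 42 and 0 reads in CTR GFP-positive, CTR GFP-negative, RA-treated GFP-positive and RA-treated GFP-negative cells.

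**Figure D4:**
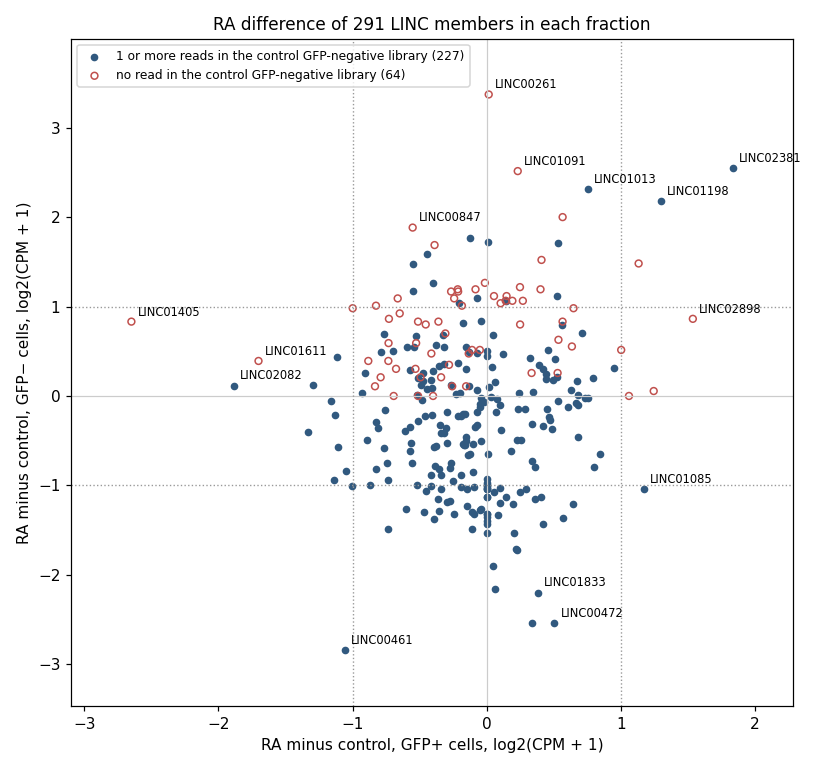
Difference between RA-treated and CTR cells in log2(CPM + 1) for each of 291 members, in GFP-positive cells (horizontal axis) and GFP-negative cells (vertical axis), with dotted lines at 1 and -1. LINC02381 and LINC01198 are at the upper right, LINC00261 is high on the vertical axis alone, LINC01405 and LINC02082 are low on the horizontal axis, and open circles are the 64 members with no read in the CTR GFP-negative library.

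Of 37 LINC symbols listed for roles in pluripotency, endoderm, heart, brain or widely expressed RNAs, 16 were members. Another 18 now carry other symbols and 3 (LINC00458 and LINC00678, known from pluripotent cells, and LINC01159) stayed under 1 CPM in every library. Of the 16, 4 were higher and 6 lower in GFP-positive cells of the CTR culture, 4 higher and 3 lower in those after RA, 1 higher and 2 lower with RA in GFP-positive cells, and 3 higher and 3 lower with RA in GFP-negative cells, where the shares over all genes, higher then lower, were 13.4% and 16.1%, 9.33% and 12.9%, 4.49% and 1.87%, and 8.19% and 7.17%. The widely expressed LINC00662 had 12.1, 7.67, 8.38 and 8.46 CPM, LINC00665 had 18.1, 13.6, 14.4 and 17.8 CPM and LINC00467 had 5.72, 3.41, 6.88 and 2.14 CPM in CTR GFP-positive, CTR GFP-negative, RA-treated GFP-positive and RA-treated GFP-negative cells. LINC00339 had 16.4, 5.96, 11.8 and 6.35 CPM, higher in both GFP-positive libraries, with 17.2% of its exon bases shared with other genes. LINC01116 had 0, 8, 14 and 38 reads and LINC01133 had 0, 10, 7 and 39, with no read in CTR GFP-positive cells for either. A list of 37 lncRNAs of other names had 29 at 1 CPM or more, of which 4 were higher and 9 lower in GFP-positive cells of the CTR culture and 8 higher and 6 lower after RA. With RA, 4 of them were higher and 0 lower in GFP-positive cells and 5 higher and 4 lower in GFP-negative cells, beside the same shares over all genes.

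Members lay at a median of 59639 bases from the nearest protein-coding start, 179 within 100 kb, 29 within 5 kb and 22 beyond 500 kb. Chromosomes 2 and 1 held the most, with 27 and 26. For 253 pairs of a member and a nearest coding gene at 1 CPM or more, Pearson's r between their differences across genes was 0.31 for the fractions of the CTR culture, 0.30 for those after RA, 0.24 for RA in GFP-negative cells and 0.20 for RA in GFP-positive cells. For 12891 pairs of neighbouring coding genes it was 0.19, 0.19, 0.14 and 0.15. Shares of equal sign did not follow the same order. Of the members that differed by at least 1, the coding neighbour had the same sign for 60.5%, 69.5%, 54.1% and 52.4%, against 61.4%, 61.6%, 60.3% and 63.6% for coding pairs. With RA the members' share was thus the lower one in both fractions. Over the 68 pairs whose member reached 5 CPM, r was 0.48, 0.41, 0.44 and 0.23 and the equal-sign shares were 70.7%, 66.7%, 56.5% and 44.4%, the last over 9 members. Both genes of a pair were measured in the same libraries, genes are not independent replicates, 83 members share exon bases with another gene, and values of this size in sparse counts are given as a description only. With RA in GFP-negative cells LINC00261 and FOXA2 were both higher and LINC01833 and SIX3 both lower, and with RA in GFP-positive cells LINC01405 and MYL2, and LINC01611 and TBX18, were both lower. Across the sort of the CTR culture LINC01611 and TBX18 went opposite ways (differences of 1.75 and -3.22), as did LINC00461 and MEF2C (-2.59 and 1.70). Beside LINC02082 (3.10) and LINC00881 (5.997) the neighbours differed by less than 1, MECOM by -0.90 and CCNL1 by -0.43.

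**Figure D5:**
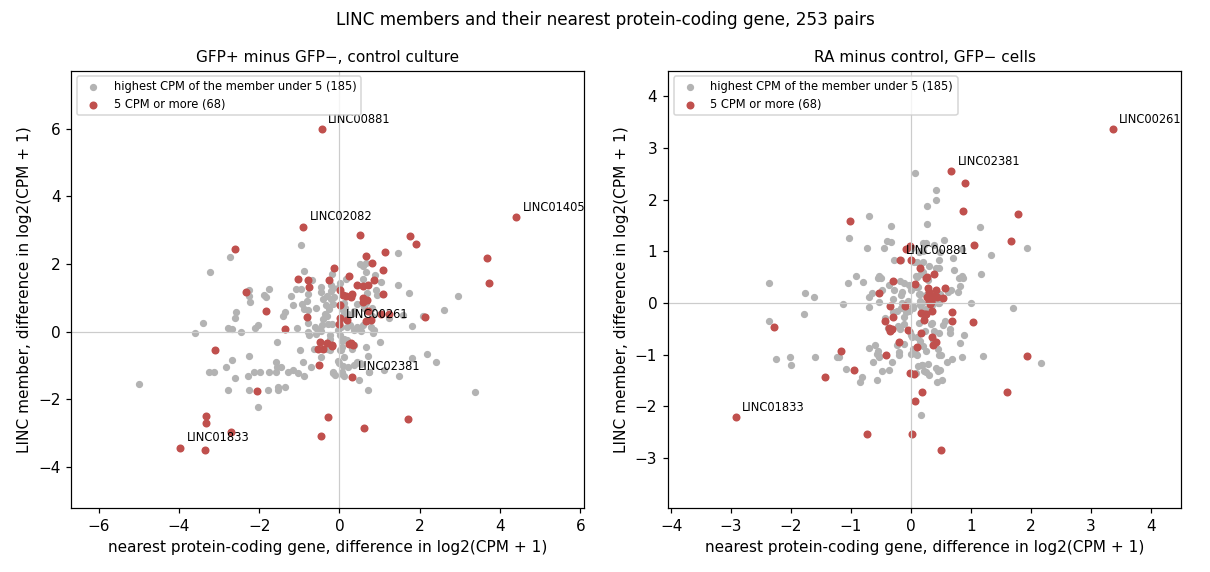
Difference in log2(CPM + 1) of 253 members (vertical axes) against that of their nearest protein-coding gene (horizontal axes), between fractions of the CTR culture (left) and between RA-treated and CTR GFP-negative cells (right), with members of 5 CPM or more in red and the rest in grey. LINC00261 and LINC01833 lie far from 0 together with their neighbours in the right panel, and LINC00881 lies far from 0 beside a neighbour near 0 in the left panel.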

How the data were processed

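RNA of 4 sorted populations was sequenced by the authors as paired ends of 75 bases from strand-specific libraries. The authors trimmed reads by quality, used GSNAP for alignment to a custom hg19 genome, kept reads with 1 position, sorted them with SAMtools 0.1.18 and counted them per Ensembl gene with HTSeq 0.6.1p1 without strand. The authors deposited raw counts. Which Ensembl release was used is not given in the sources used here. Because multi-mapping reads were dropped and strand was ignored, copies and overlapping genes are uncertain.

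Identifiers were matched to current symbols (55538 of 60234, or 92.2%), positions were those of GENCODE v44 on GRCh37, and promoter windows were those of RefSeq. CPM values used TMM factors from edgeR 4.0.16 in R 4.3.3 (0.951 to 1.07). Differences are in log2(CPM + 1), on which scale the change of low genes is understated, and a member was counted at a difference of 1. Ratios of counts carry 95% Clopper-Pearson and CPM exact Poisson intervals. With 1 library per condition no test was made. Named members were the 5 largest in each direction of each comparison and of the difference between RA differences, the 10 of highest mean CPM, the 5 of highest CPM per kb in each library, LINC00881 and a role list. The members and lists were chosen with earlier results of these data known. The procedure was checked on simulated counts. Alternatives were other scalings (one with DESeq2 1.42.0), pseudocounts, filters, a ratio call and thinning to 4371101 reads. The values of 1 neighbouring gene are not reported here. Figures were drawn with matplotlib 3.10.9.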

Additional observations from a re-analysis of the deposited data

Results flagged for a closer look

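The RA difference in log2(CPM + 1) had opposite signs in GFP-positive and GFP-negative cells for 8 named members, with counting intervals of both ratios apart from equality. Whether the fractions differ was not tested, as each has 1 library per treatment. Of the 8, LINC00472, LINC01085, LINC01164, LINC01833 and LINC00847 were named for the size of the difference between their RA differences, which favours opposite signs. Only named members were searched, and the same share over all genes was not computed. LINC01085 had 1.17 in the GFP-positive and -1.05 in the GFP-negative fraction, on 42 reads against 4 and 0 against 5. LINC00472 had 0.51 and -2.54, LINC01164 had 0.34 and -2.54, LINC01833 had 0.38 and -2.20, LINC01638 had 0.57 and -1.36, and LINC01551 had 0.64 and -1.21. These 6 members were higher with RA in GFP-positive cells and lower in GFP-negative cells. LINC01164 and LINC01551 met the limit of 1 CPM only in CTR GFP-negative cells, so that their lower level with RA there follows from how members were chosen. The other way round, LINC00847 had -0.55 and 1.88. LINC00665 had -0.31 and 0.36, and its difference in GFP-positive cells was 0.07 after thinning, so that its signs were then no longer opposite.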

How the results depend on the processing

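No replicates exist, so none of these values has an error between cultures. The shallow CTR GFP-negative library limits the precision of the comparisons it enters wherever it holds the fewer reads. The 90 differences of at least 1 among the named members kept their direction under the 8 other scalings, pseudocounts, ratio and thinning tried, which says little about stability, since these members were named for the size of their differences and a pseudocount cannot turn a sign. Of 185 counts and correlations recomputed, 126 stayed within 1.5 times the reported value and 59 did not. Shares of called genes over all genes were not computed at these other settings, apart from the rule without CTR GFP-negative cells. In the following, counts are given as higher then lower, in the order RA in GFP-positive cells, RA in GFP-negative cells, GFP-positive cells of the CTR culture and GFP-positive cells after RA. With a pseudocount of 5 CPM the counts were 0 and 2, 3 and 7, 16 and 10, and 12 and 6, the RA difference was larger in GFP-positive cells for 7 members and smaller for 3, 6 and 2 members were higher and lower in GFP-positive cells of both cultures, and 0 and 0 with RA in both fractions. With a pseudocount of 0.25 CPM they were 30 and 37 with RA in GFP-positive cells, 72 higher with RA in GFP-negative cells, and 83 and 54 in GFP-positive cells after RA, with 76 and 87 for the difference of RA differences, 50 and 31 in both cultures, and 11 and 12 in both fractions. Calling a 2-fold ratio with counts under 3 set to 3 reads gave 44 and 50 with RA in GFP-positive cells, 110 lower with RA in GFP-negative cells, 97 lower in GFP-positive cells of the CTR culture, 98 and 65 in those after RA, 97 with a larger RA difference in GFP-positive cells, 46 and 48 in both cultures, and 7 and 28 in both fractions. A limit of 5 CPM left 78 members with counts of 1 and 8, 11 and 15, 33 and 13, and 28 and 10, with 10 and 16 for the difference of RA differences, 1 higher in both fractions, and r with the nearest coding gene of 0.44 for RA in GFP-negative cells and 0.48 for the CTR fractions. By construction the pseudocounts and the 5 CPM limit act on members of low level. Thinning gave 33 lower with RA in GFP-positive cells and 5 lower in both fractions, and 169 and 163 members with 4 reads in RA-treated GFP-positive and GFP-negative cells in place of 257 and 252, while a limit of 10 reads left 93 in CTR GFP-negative cells in place of 192. TMM factors of each pair left 1 member lower with RA in both fractions. Choosing members without CTR GFP-negative cells, an alternative added after seeing the data as were those of the counts in both cultures and both fractions, gave 22 lower with RA in GFP-negative cells, 24 lower in GFP-positive cells of the CTR culture and 17 with a larger RA difference in GFP-positive cells. Scaling by library size alone moved the median difference of all genes with RA in GFP-negative cells by -0.12 and that of the members from -0.04 to -0.14. The labels give no replicate numbers, and a fit that pairs the 2 fractions of each culture, which leaves 1 residual degree of freedom over the 4 libraries, was not made.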
